A study of Mus musculus with 16 samples.

Results

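Immunoglobulin heavy chain variable (Ighv) segments were described in bulk RNA sequencing of the mouse colon. All rows of the deposited expression table whose gene identifier maps to a mouse symbol starting with Ighv were taken, which gave 145 of 39328 rows. They carried 144 symbols, because Ighv1-13 has a pair of identifiers, and 185 Ighv identifiers stand in the symbol table used. The animals were adult wild-type ICR mice, an outbred stock, delivered either vaginally (VD) or through cesarean section (CS). For 8 days their drinking water was plain (CON) or held 3% dextran sulfate sodium (DSS), which damages the epithelium and causes colitis. The groups CON_VD, CON_CS, DSS_VD and DSS_CS, 4 in all, had 4 libraries each, and no group carried an engineered allele according to the labels. Nothing in the labels states that the libraries are separate mice, and p-values therefore cover the spread between samples alone, which may be technical.

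An antibody heavy chain gene is assembled in each developing B cell by joining 1 V, 1 D and 1 J segment, and the joined exon is then spliced to a constant region gene. The germline V segments lie in a long array beside the D and J segments, and those that share most of their sequence are grouped into families, named by the number after Ighv. In the colon most heavy chain RNA comes from plasma cells of the lamina propria, which mainly make IgA, while B cells in lymphoid follicles carry IgM and IgD and can switch to IgG. Cells of a clone share their V segment, so bulk RNA adds the segments of all clones weighted by the RNA of their cells.

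The 145 rows lay on GRCm38 chromosome 12 between positions 113572927 and 116010093, and 144 of them were on the minus strand, in the direction of the J and constant genes. GENCODE M21 annotates 111 of them as functional V genes, 33 as V pseudogenes and 1 as IG_LV_gene, a class apart. The end at the lowest coordinates is nearest to the D and J segments, with Ighj1 at chr12:113429781-113429833, Ighm at chr12:113418558-113422730 and Igha at chr12:113254830-113260236. The last 90 transcript bases are printed for 7 of the segments that led at least 1 library. They are also printed for Ighv1-20, which was lower in both CS groups, and for the pseudogenes Ighv1-14 and Ighv1-62. They are reference sequences from the GENCODE M21 transcripts, 5′ to 3′ on the coding strand. Capitals mark the match to TANTNNTGN, a motif around the conserved tyrosine and cysteine codons that close framework 3. It requires the codon between them to start with T, so that a segment with another codon there is not matched.
Ighv7-3: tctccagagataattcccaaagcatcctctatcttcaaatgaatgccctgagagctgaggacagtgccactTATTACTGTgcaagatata
Ighv7-1: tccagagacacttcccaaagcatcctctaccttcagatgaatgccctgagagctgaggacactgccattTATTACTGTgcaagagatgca
Ighv3-6: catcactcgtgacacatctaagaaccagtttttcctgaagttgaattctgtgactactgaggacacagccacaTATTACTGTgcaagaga
Ighv2-2: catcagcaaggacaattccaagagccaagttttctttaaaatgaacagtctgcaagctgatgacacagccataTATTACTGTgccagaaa
Ighv1-81: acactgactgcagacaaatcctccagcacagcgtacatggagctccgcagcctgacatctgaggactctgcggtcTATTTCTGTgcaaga
Ighv1-53: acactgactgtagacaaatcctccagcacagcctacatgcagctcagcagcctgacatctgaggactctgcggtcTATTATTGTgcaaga
Ighv6-3: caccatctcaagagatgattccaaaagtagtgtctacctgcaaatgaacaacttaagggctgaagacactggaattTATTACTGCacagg
Ighv1-20: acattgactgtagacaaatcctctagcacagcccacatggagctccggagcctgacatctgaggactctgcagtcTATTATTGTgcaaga
Ighv1-14: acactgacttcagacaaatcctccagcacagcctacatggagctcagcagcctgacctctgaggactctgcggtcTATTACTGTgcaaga
Ighv1-62: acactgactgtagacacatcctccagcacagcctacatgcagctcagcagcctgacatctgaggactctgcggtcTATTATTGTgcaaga
This motif was searched on the coding strand in the last 45 bases of each transcript and was found in 131 of 145 rows (90.3%), in 106 of 111 functional rows (95.5%) and in 25 of 33 pseudogenes (75.8%). The segments shown lie at chr12:114153180-114153644 (Ighv7-3), chr12:113896408-113896946 (Ighv7-1), chr12:114288152-114288582 (Ighv3-6), chr12:113588267-113588702 (Ighv2-2) and chr12:115920279-115920712 (Ighv1-81). The others lie at chr12:115158403-115158835 (Ighv1-53), chr12:114391712-114392169 (Ighv6-3), chr12:114723772-114724205 (Ighv1-20), chr12:114646572-114647056 (Ighv1-14) and chr12:115371986-115372433 (Ighv1-62). Each has 2 exons. Of the 145 transcripts, 62 had another Ighv transcript at 95% identity or more and 108 at 90% or more. Ighv1-53 and Ighv1-62 were 96.6% identical, Ighv1-20 and Ighv1-37 98.6%, and Ighv7-3 and Ighv7-1 88.9%. The sources used here do not give how reads shared by near-identical segments were assigned, so values of single segments with close relatives are uncertain, and somatic mutation can add to this.

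Values are FPKM (fragments per kilobase of transcript, scaled to the mapped fragments of the library), a level per length, as the authors deposited them. Read depth is unknown, and an FPKM of 0 is described as listed at 0. Pearson correlations of log2 values between libraries of a group were 0.971 to 0.989. Pbsn, the probasin gene and a marker of prostate, stood out in 3 libraries. It was at 185 FPKM in CON_CS replicate 1, 128 in DSS_CS replicate 3 and 1355 in DSS_CS replicate 4. The others were at 0.526 or less. These 3 are named below as the libraries with prostate genes, by Pbsn alone. The seminal vesicle genes Svs4 and Svs5 were at 2.10 FPKM or less in every library. The fourth gene of that list, Spink1, was between 51.6 and 371 in every library. Summed markers of 10 B cell genes were 43.2 FPKM in CON_VD replicate 1 against 2.56 to 5.35 in the other 7 libraries on water.

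Summed Ighv FPKM was lower in CS than in VD mice on water and higher under DSS in mice of either birth. The total was 975, 956, 999 and 851 FPKM in CON_VD replicates 1 to 4, and 156, 824, 148 and 166 in CON_CS replicates 1 to 4. Under DSS it was 2643, 2472, 5686 and 2908 in DSS_VD, and 1199, 2934, 1425 and 7586 in DSS_CS. CON_CS replicate 2 sat close to the CON_VD libraries and above the other 3 of its own group, DSS_VD replicate 3 and DSS_CS replicate 4 were the highest of all, and the DSS groups overlapped. As geometric means, CON_CS was 3.99-fold lower than CON_VD, DSS_VD was 3.42-fold higher than CON_VD and DSS_CS was 10.5-fold higher than CON_CS, and in each of these 3 comparisons the ranges of the groups did not overlap. Without CON_CS replicate 2 the first ratio was 6.04 and the last 15.9, and without the 3 libraries with prostate genes the last was 6.89. DSS_CS stood 1.30-fold below DSS_VD, a log2 difference of -0.38 against a pooled SD of 0.94. No test was run on totals, which sum over the chosen rows.

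**Figure D1:**
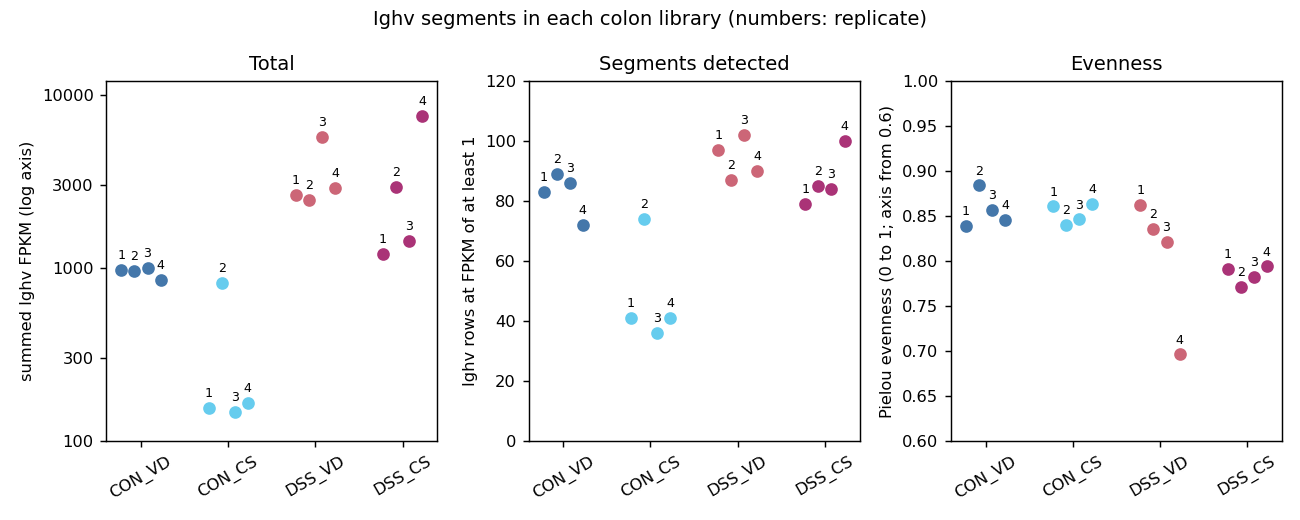
Summed Ighv FPKM (log axis), number of Ighv rows at an FPKM of at least 1, and Pielou evenness (axis from 0.6) in each library, with 1 point per library and its replicate number. CON_CS replicate 2 stands at 824 FPKM and 74 segments beside 148 to 166 FPKM and 36 to 41 segments in the other CON_CS libraries, and DSS_VD replicate 4 has the lowest evenness, 0.696.

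Segments at an FPKM of at least 1 numbered 83, 89, 86 and 72 in CON_VD, and 41, 74, 36 and 41 in CON_CS. They numbered 97, 87, 102 and 90 in DSS_VD, and 79, 85, 84 and 100 in DSS_CS. Low counts were found in the 3 CON_CS libraries of low total, and CON_CS replicate 2 with 74 overlapped the CON_VD range. The means were 82.5 ± 7.4 (SD, n = 4) in CON_VD, 48.0 ± 17.5 in CON_CS, 94.0 ± 6.8 in DSS_VD and 87.0 ± 9.1 in DSS_CS. DSS_CS exceeded CON_CS without overlap, while DSS_VD overlapped CON_VD and DSS_CS overlapped DSS_VD. A fixed FPKM limit is reached by fewer segments where the total is low, and the part of this in the counts was not tested. In all, 120 rows reached 1 FPKM in at least 1 library, 13 did so in all 16, and 8 were listed at 0 throughout. Of the 25 rows that never reached 1 FPKM, 16 were pseudogenes and 8 were annotated as functional.

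Evenness was measured as Pielou's index, the Shannon entropy of the FPKM shares divided by its maximum for the segments above 0, so that 1 means equal shares. It was 0.839, 0.884, 0.856 and 0.846 in CON_VD, and 0.861, 0.840, 0.846 and 0.864 in CON_CS. Under DSS it was 0.863, 0.835, 0.821 and 0.696 in DSS_VD, and 0.792, 0.771, 0.782 and 0.794 in DSS_CS. The water groups overlapped, with means of 0.856 ± 0.020 and 0.853 ± 0.011 (SD, n = 4), although their totals lay apart. DSS_CS, at 0.785 ± 0.011, lay below CON_CS without overlap, and DSS_VD, at 0.804 ± 0.074, overlapped both CON_VD and DSS_CS. The difference of DSS_CS from CON_CS was -0.068, and it was -0.0265 when the index was taken over the log of all rows. That of CON_CS from CON_VD was -0.0035, and 0.0171 over segments at 1 FPKM or more. Over the log of all rows it was more negative, as given in the last section. Within DSS_VD, replicate 4 alone was below the DSS_CS libraries, and the other 3 were above them. As an effective number of segments, the exponential of the entropy, this was 47.5 to 60.2 in CON_VD and 39.9 to 46.0 in CON_CS. In DSS_VD it was 26.2 to 59.9 and in DSS_CS 35.6 to 43.3. By this measure CON_CS lay below CON_VD without overlap, and DSS_CS overlapped CON_CS. Pielou's index also depends on the number of segments above 0, which was 96 to 110 in CON_VD and 78 to 95 in CON_CS. The 5 leading segments held 26.0% to 30.7% of Ighv FPKM in CON_VD, 28.9% to 35.7% in CON_CS, 25.9% to 54.7% in DSS_VD and 34.7% to 40.3% in DSS_CS.

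Different segments led different libraries. In CON_VD the highest were Ighv1-55 (10.9% of Ighv FPKM), Ighv1-18 (7.74%), Ighv3-6 (8.62%) and Ighv2-2 (5.81%) in replicates 1 to 4. In CON_CS they were Ighv2-9-1 (10.7%), Ighv7-3 (8.90%), Ighv1-53 (9.99%) and Ighv1-81 (9.55%). No water group therefore had a shared leader. In DSS_VD, Ighv7-3 led replicates 1 (9.64%) and 4 (29.6%), and Ighv7-1 led replicates 2 (8.52%) and 3 (8.31%). In DSS_CS the leaders were Ighv3-6 (13.8%), Ighv6-3 (14.9%), Ighv7-3 (20.4%) and Ighv1-53 (13.2%). Each DSS_CS leader held a larger share than any leader of a water library, where the highest was 10.9%. The 10 highest segments of the 16 libraries came from 44 segments, of which 18 were in the 10 highest of a single library and 6 in at least 8 libraries. Those 6 were Ighv3-6 (15 libraries), Ighv2-2 (14), Ighv1-26 and Ighv1-81 (11 each), and Ighv7-3 and Ighv9-3 (10 each), and none was in the 10 highest of all 16.

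Ighv7-3 had the highest mean share, 6.52% over the 16 libraries. Its FPKM was 25.9, 15.0, 65.1 and 31.0 in CON_VD, 2.98, 73.3, 2.87 and 5.81 in CON_CS, 255, 48.0, 350.1 and 862 in DSS_VD, and 18.2, 78.6, 291 and 127 in DSS_CS. DSS_VD replicate 4 and CON_CS replicate 2 were the highest of their groups, and the ranges of all 4 groups overlapped. The second by mean share was Ighv3-6 (6.19%), at 44.5, 56.6, 86.2 and 41.2 FPKM in CON_VD and 8.58, 34.2, 9.31 and 7.84 in CON_CS. Under DSS it was at 118, 132, 455 and 260.2 in DSS_VD and at 166, 202, 71.5 and 139 in DSS_CS. Its shares stayed between 1.83% and 13.8% in all 16 libraries, and no library was without it. Ighv1-53 ranged more widely, from 0.988 FPKM in CON_CS replicate 4 to 1003 in DSS_CS replicate 4, and its share from 0.597% to 13.2%. Ighv6-3 reached 437 FPKM in DSS_CS replicate 2 and 237 in replicate 4 but 3.52 and 17.1 in replicates 1 and 3 of that group. Ighv2-9-1 was at 492 FPKM in DSS_CS replicate 4 and at 8.98 to 18.0 in the other DSS_CS libraries.

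By family, Ighv1, the largest with 74 of the 145 rows, held 42.5% of Ighv FPKM on average. Ighv2 held 11.95%, Ighv3 10.3%, Ighv5 10.2% and Ighv7 9.21%, the last with 4 rows. Family 7 held 2.90% to 7.71% in CON_VD, 2.36% to 9.62% in CON_CS, 10.5% to 31.6% in DSS_VD and 2.41% to 27.7% in DSS_CS. All 4 DSS_VD libraries were above all 8 water libraries in family 7, and in DSS_CS replicate 3 alone was, at 27.7% beside 2.41% to 3.90% in the others. Family 6 held 15.3% in DSS_CS replicate 2 and 4.72% or less elsewhere, and family 8 held 8.33% in DSS_CS replicate 4 and 3.79% or less elsewhere. Leading segments of the smaller families were Ighv9-3, Ighv14-2, Ighv8-8, Ighv10-1 and Ighv4-1, and Ighv5-17 led family 5, with mean shares of their families between 1.45% and 10.2%.

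**Figure D2:**
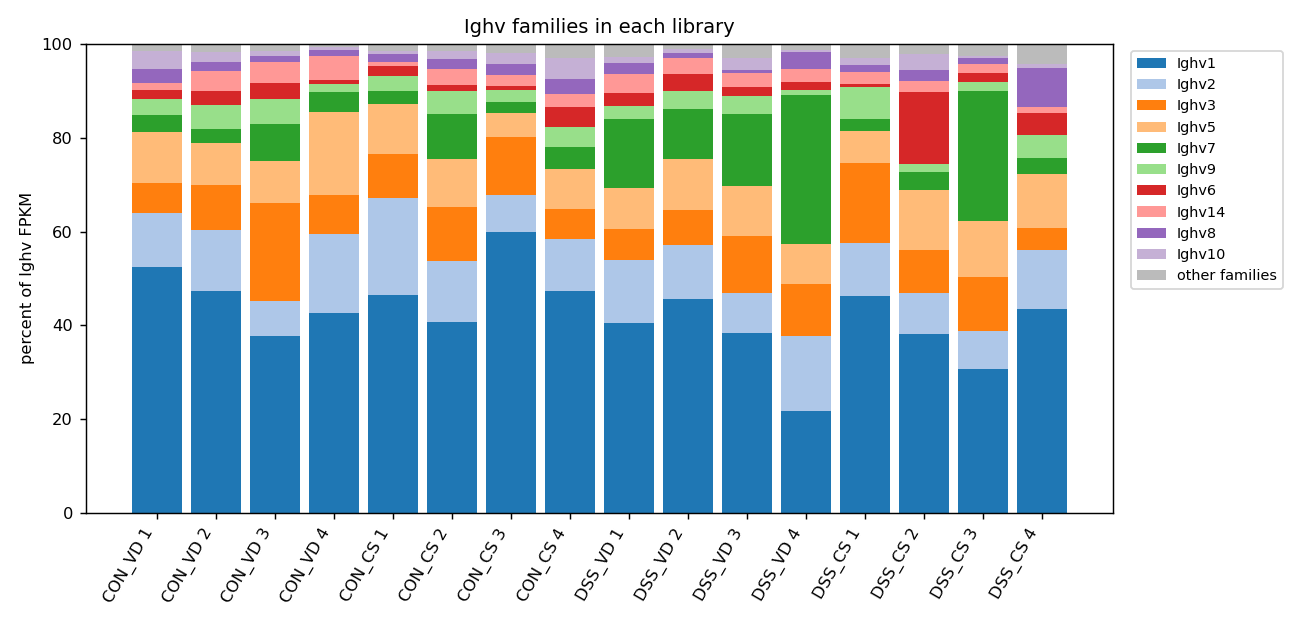
Share of each Ighv family in the summed Ighv FPKM, as stacked bars from 0 to 100 percent, with 1 bar per library. Family 1 holds 21.7% to 59.9%, and family 7 reaches 31.6% in DSS_VD replicate 4 and 27.7% in DSS_CS replicate 3.

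Along the locus, the 49 rows nearest to the D and J segments held 49.7% of Ighv FPKM on average, the 48 rows in the middle 22.7% and the 48 farthest rows 27.6%. The nearest rows held from 34.1% (CON_CS replicate 3) to 72.5% (DSS_VD replicate 4). The farthest rows held least in DSS_CS replicate 3 (12.3%) and DSS_VD replicate 4 (14.8%), and 18.8% to 45.9% in the other 14 libraries.

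**Figure D3:**
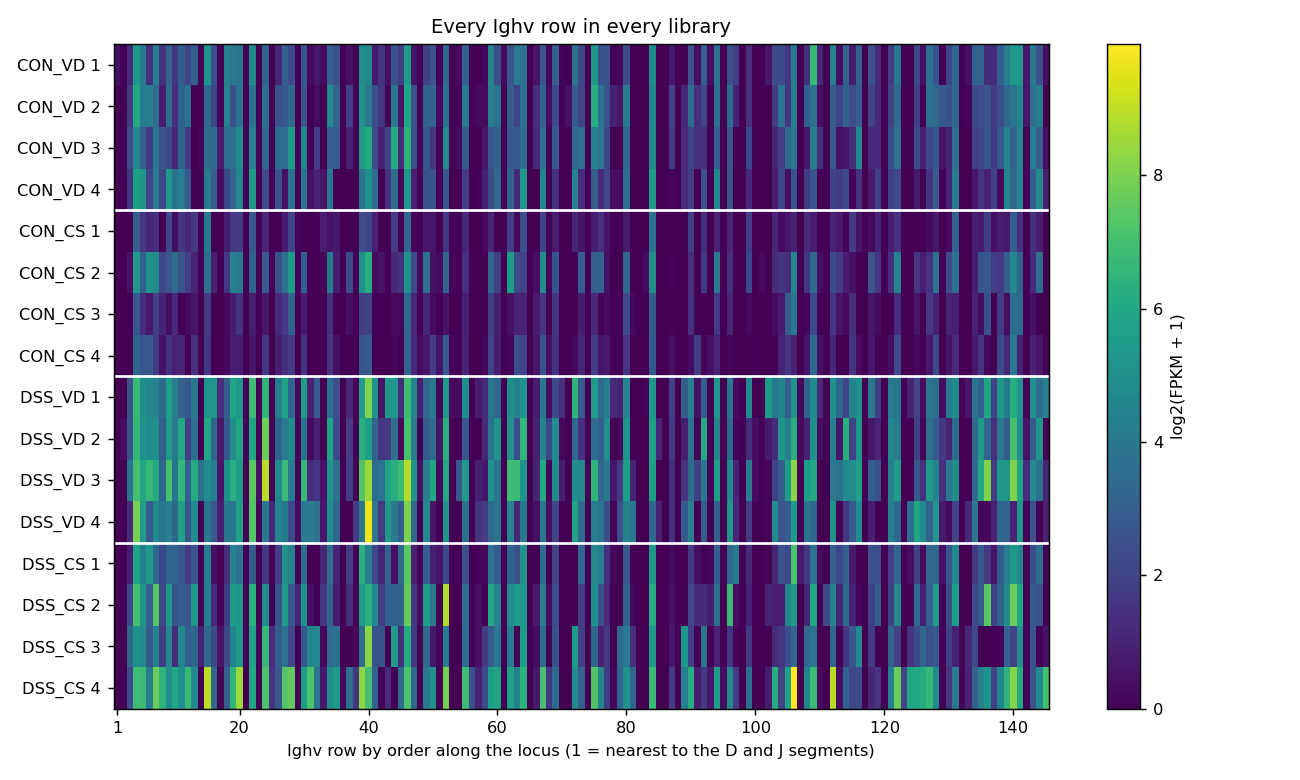
Levels of all 145 Ighv rows, as log2(FPKM + 1) in color, with libraries down the side and rows across in their order along the locus, from the segment nearest to the D and J segments. CON_CS replicates 1, 3 and 4 are dark over the whole array, and single bright rows differ from library to library.

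The first comparison asked how birth by cesarean section related to Ighv levels on normal water. Of 145 rows, 77 passed the filter of at least 1 FPKM in at least 4 of the 8 libraries and were tested with limma on log2(FPKM + 1). Lower in CON_CS were 6 of them, where 0.226% of all 13275 tested genes were called lower, and 0 were higher, where 0.181% of all were. The median log2 difference over the tested rows was -1.45, against 0.03 over all tested genes, and 75 of the 77 were negative. Of the 77 rows, 4 reached 1 FPKM in 1 group only, and 3 of these were among the 6 called, so that this filter chose rows that had to differ.

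These 3 were Ighv1-20, Ighv2-6-8 and Ighv5-2, whose values are a description. Ighv1-20, a family 1 segment, was at 4.94, 5.01, 3.41 and 3.27 FPKM in CON_VD and at 0.475, 0.365, 0.230 and 0.585 in CON_CS. The groups did not overlap, and CON_CS replicate 2, which was high in the total, was low here. The log2 difference was -1.86 ± 0.15 (SE). Of the other 3 called rows, Ighv1-84 was at 15.7, 11.9, 18.8 and 7.02 FPKM in CON_VD and at 1.73, 1.26, 0.364 and 0.864 in CON_CS, a log2 difference of -2.77 ± 0.30 (limma adjusted p = 0.0187). The pseudogene Ighv1-14 was at 13.1, 6.63, 8.88 and 20.2 FPKM against 1.11, 0, 0 and 0.156 (-3.29 ± 0.34, adjusted p = 0.0187). Again no CON_CS library reached the lowest CON_VD library. Ighv1-42 (-1.88 ± 0.30) was also lower. Ighv2-6-8 (-2.54 ± 0.30) and Ighv5-2 (-1.62 ± 0.24), which passed the filter through CON_VD, were listed at 0 in CON_CS replicates 1, 3 and 4. The segments of highest mean share did not pass the threshold: Ighv3-6 differed by -2.07 ± 0.44 (adjusted p = 0.0837) and Ighv7-3 by -1.72 ± 0.90 (adjusted p = 0.329). The count rested on single libraries. It was 21 without CON_CS replicate 2 and 3 without CON_CS replicate 1, the library with prostate genes. It was 1 without CON_CS replicate 3 or 4, 2 without CON_VD replicate 1 or 2, and 0 without CON_VD replicate 3, with 35 rows then at an unadjusted p under 0.05. Calls over all tested genes, 54 with no library left out, moved as well. They were 71 without CON_CS replicate 2, 15 without CON_CS replicate 1 and 1 without CON_CS replicate 3 or 4. Without CON_VD replicate 1, 2 or 3 they were 12, 36 and 0.

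In vaginally born mice, DSS was compared with water. Of 91 tested rows 35 rose and 0 fell, where 24.0% of all 13933 tested genes rose and 17.0% fell. The median log2 difference over these rows was 1.30, against 0.06 over all tested genes. Ighv1-63, a family 1 segment, was at 2.26, 3.15, 4.19 and 2.86 FPKM in CON_VD and at 16.4, 24.3, 19.9 and 18.96 in DSS_VD. All 4 DSS libraries stood above all 4 water libraries, and the rise was 2.35 ± 0.16 on the log2 scale (limma adjusted p = 2.6e-05). Ighv5-9-1 was at 7.12 FPKM in CON_VD replicate 1 and listed at 0 in the other 3, and at 14.9, 11.3, 71.3 and 28.2 in DSS_VD (3.91 ± 0.77, adjusted p = 0.0033). Ighv1-5 (2.52 ± 0.44), Ighv2-9 (2.31 ± 0.42) and Ighv9-4 (2.77 ± 0.52) completed the 5 of smallest p. Among the leading segments, Ighv7-3 rose by 3.01 ± 0.79 (adjusted p = 0.0137), Ighv7-1 by 3.69 ± 0.89 (adjusted p = 0.00911), and Ighv2-2 by 1.68 ± 0.36 (adjusted p = 0.00498). Ighv1-26 differed by 0.12 ± 0.52 (adjusted p = 0.873) and Ighv1-81 by 1.68 ± 1.35 (adjusted p = 0.357), with Ighv1-81 at 76.2, 135, 272 and 0.994 FPKM in DSS_VD. FPKM are shares of a library, and summed epithelial markers were between 4279 and 5072 FPKM in CON_VD and between 2237 and 4768 in DSS_VD, with 4 of 10 genes lower. Summed red blood cell genes were between 53.6 and 332 FPKM in CON_VD and between 241 and 975 in DSS_VD, with 4 of 4 tested genes higher. Whether fewer epithelial cells raised the share of all other RNA was not tested.

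In cesarean-born mice, 46 of 77 tested rows rose with DSS and 0 fell, where 34.4% of all 14372 tested genes rose and 25.9% fell. The median was 2.23 against 0.06, and all 77 log2 differences were positive. Of these rows 4 reached 1 FPKM in 1 group only, and all 4 (Ighv1-20, Ighv1-59, Ighv1-74 and Ighv14-4) were among those called. They had to differ, and their values are a description. Ighv1-7, a family 1 segment, was at 4.39, 2.82, 0.926 and 2.99 FPKM in CON_CS and at 31.2, 40.3, 45.7 and 85.8 in DSS_CS. The groups lay far apart, and the log2 difference was 3.77 ± 0.37 (limma adjusted p = 3.2e-05). Ighv3-6 rose by 3.36 ± 0.48 (adjusted p = 0.000302) and Ighv1-84 by 1.61 ± 0.21. Of the rows that passed through DSS_CS, Ighv1-20 differed by 1.03 ± 0.15 and Ighv1-59 by 2.49 ± 0.40. Ighv1-20 stayed low under DSS in these mice, at 1.59, 1.34, 2.19 and 2.58 FPKM. Ighv2-9-1 differed by 2.42 ± 1.19 (adjusted p = 0.110) and Ighv1-81 by 1.97 ± 1.23 (adjusted p = 0.199). Without the 3 libraries with prostate genes 47 rows were tested and 16 rose, and the count was 30 without CON_CS replicate 1 or 4 or DSS_CS replicate 4. Over all tested genes 4937 rose, and 2802 of 12324 without the 3 libraries with prostate genes. In the other fits 4725, 4617 and 3654 rose, in this order. All 10 epithelial markers were lower here, with sums between 4964 and 5214 FPKM in CON_CS and between 789 and 2372 in DSS_CS. Summed red blood cell genes were between 28.4 and 47.7 FPKM in CON_CS and between 903 and 9731 in DSS_CS, and the part of either in the Ighv rises was not tested.

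Under DSS, CS mice were compared with VD mice. Of 97 tested rows 5 were lower in DSS_CS, where 5.54% of all 14313 tested genes were lower, and 0 were higher, where 7.89% of all were. The share of rows called lower was thus near that of all genes, and the median was -0.37 against 0.06. Other cell types moved between these groups. Of 10 epithelial genes 6 were lower in DSS_CS, with sums between 789 and 2372 FPKM against 2237 to 4768 in DSS_VD. Of 5 red blood cell genes 3 were higher, with sums between 903 and 9731 FPKM against 241 to 975. Their part in the Ighv values was not tested. Ighv1-20 was at 16.5, 30.2, 15.4 and 4.19 FPKM in DSS_VD. The DSS_CS values above did not overlap these (-2.35 ± 0.47, limma adjusted p = 0.0316). Its near-identical relative Ighv1-37 was at 7.25, 67.3, 15.0 and 7.10 FPKM in DSS_VD. In DSS_CS Ighv1-37 was at 0, 1.41, 15.2 and 2.20, and the groups overlapped. Ighv1-74 was at 13.6, 10.0, 9.76 and 14.9 FPKM in DSS_VD and at 2.16, 3.64, 3.59 and 7.60 in DSS_CS (-1.39 ± 0.29, adjusted p = 0.0319). Ighv9-4 (-2.47 ± 0.53), Ighv14-1 (-1.64 ± 0.35) and the pseudogene Ighv1-62 (-3.42 ± 0.93, adjusted p = 0.0468) were the others. For Ighv1-74, Ighv9-4 and Ighv14-1, as for Ighv1-20, the groups did not overlap. The count was 0 without DSS_VD replicate 1, DSS_CS replicate 2 or DSS_CS replicate 3, with 12, 12 and 13 rows at an unadjusted p under 0.05, and 1 without DSS_VD replicate 2. It was 2 without DSS_VD replicate 4, 2 without the 2 DSS_CS libraries with prostate genes, and 0 without the filter on low values, with 15 rows then at an unadjusted p under 0.05. Calls over all tested genes fell as well, from 1923 to 0 without DSS_VD replicate 1, 57 without DSS_CS replicate 2 and 1 without DSS_CS replicate 3. They were 51 without DSS_VD replicate 2, 604 without DSS_VD replicate 4, 6 without the prostate libraries and 3 without the filter. None of the leading segments passed: Ighv7-3 differed by -1.51 ± 1.005 (adjusted p = 0.335) and Ighv3-6 by -0.61 ± 0.48 (adjusted p = 0.411).

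The interaction of birth and DSS, the DSS response of CS mice minus that of VD mice, was fitted on all 16 libraries. Of 98 tested rows 4 were positive past the threshold, where 6.68% of all 15233 tested genes were, and 0 were negative, where 6.55% were. The number of rows called was thus not above the share of all genes. The interaction was also positive in all 5 red blood cell genes and negative in 5 of 10 epithelial genes, and the part of either in these rows was not tested. Ighv1-80 was at 18.9, 8.88, 20.05 and 24.0 FPKM in CON_VD and at 0.583, 6.93, 0.3003 and 1.15 in CON_CS. Under DSS it was at 15.8, 6.34, 38.2 and 8.45 in DSS_VD and at 17.9, 29.5, 7.69 and 92.0 in DSS_CS. The groups lay apart on water and overlapped under DSS, with an interaction of 3.72 ± 1.0002 (limma adjusted p = 0.0279). Ighv1-7 (2.68 ± 0.73, adjusted p = 0.0288), Ighv1-82 (2.56 ± 0.70, adjusted p = 0.0299) and Ighv1-4 (2.51 ± 0.79, adjusted p = 0.048) were the other 3. Ighv1-7 and Ighv1-4 were 96.9% identical, and Ighv1-80 and Ighv1-82 95.4%. Reads may have been shared within each pair, so the 4 calls may not be separate. Without the 3 libraries with prostate genes 0 rows were called, with 12 at an unadjusted p under 0.05. The count was 1 without CON_VD replicate 3, CON_CS replicate 1, 3 or 4, or DSS_CS replicate 2, and 2 without DSS_VD replicate 2 or DSS_CS replicate 3. Over all tested genes 2015 were called, and 637 without the 3 libraries with prostate genes. In the fits just named that left out 1 library, 1056 to 1423 were called.

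The heavy chain constant genes, which show the antibody class, summed to 74.8 to 781 FPKM on water and 877 to 3968 under DSS. Their shares of this sum differed between water and DSS. IgA held 89.2% to 98.6% of the summed heavy chain constant FPKM in the 8 water libraries. Under DSS the IgA share was 47.8%, 27.0%, 43.7% and 48.0% in DSS_VD and 69.8%, 69.9%, 25.2% and 28.8% in DSS_CS. All DSS libraries were below all water libraries, and DSS_CS replicates 1 and 2 stood above every DSS_VD library. Igha itself was at 704, 448, 562 and 526 FPKM in CON_VD and at 777, 425, 1378 and 837 in DSS_VD, a log2 difference of 0.51 ± 0.33 (limma adjusted p = 0.249). Ighg2b went from 9.43, 2.42, 2.09 and 2.27 FPKM to 243, 429, 612 and 302, a rise of 6.42 ± 0.42 (adjusted p = 1.9e-05). Ighg2c rose by 5.87 ± 0.68, Ighg3 by 5.92 ± 0.46, Ighm by 4.98 ± 0.55, Ighd by 4.39 ± 0.70 and Ighg1 by 2.84 ± 0.39. Thus 6 of 7 tested heavy chain constant genes rose in VD mice. Of these, Ighg1 was at 0.577 FPKM or less in CON_VD, passed the filter through DSS_VD and had to differ. Ighd and Ighg3 reached 1 FPKM in CON_VD in replicate 1 alone, at 12.5 and 2.61, and their values are a description too. Ighe, the IgE gene, did not pass the filter and was at 8.51 FPKM in DSS_VD replicate 1 and at 2.49 or less elsewhere. Light chain Igkc rose by 1.25 ± 0.28.

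In CS mice all 7 tested heavy chain constant genes rose with DSS. Ighd, Ighg1 and Ighg3 were at 0.892 FPKM or less in CON_CS and passed the filter through DSS_CS. They had to differ, and their values are a description. Igha was at 74.3, 348, 67.9 and 85.7 FPKM in CON_CS and at 612, 1344, 248 and 1143 in DSS_CS (2.64 ± 0.65, limma adjusted p = 0.00711). CON_CS replicate 2, again close to CON_VD, overlapped the DSS_CS range. Ighg2b rose by 6.59 ± 0.84, from at most 2.29 FPKM to 59.0, 293, 104 and 1361. The interaction of birth and DSS in Igha was 2.13 ± 0.79 (adjusted p = 0.0825) and in Ighg2b 0.16 ± 1.02 (adjusted p = 0.935). Between the birth groups on water, Igha differed by -2.31 ± 0.47 (adjusted p = 0.0766), Igkc by -2.42 ± 0.44 (adjusted p = 0.064) and Jchain, which links IgA and IgM chains, by -2.38 ± 0.46 (adjusted p = 0.0707). None of these passed the threshold, while Mzb1, a chaperone of antibody-secreting cells, did (-1.76 ± 0.29, adjusted p = 0.0457). The Ighv total divided by the summed heavy chain constant FPKM was 1.25 to 2.27 in all 16 libraries, and the D and J segments summed to 57.4 to 570.2 FPKM on water and 519 to 2981 under DSS.

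**Figure D4:**
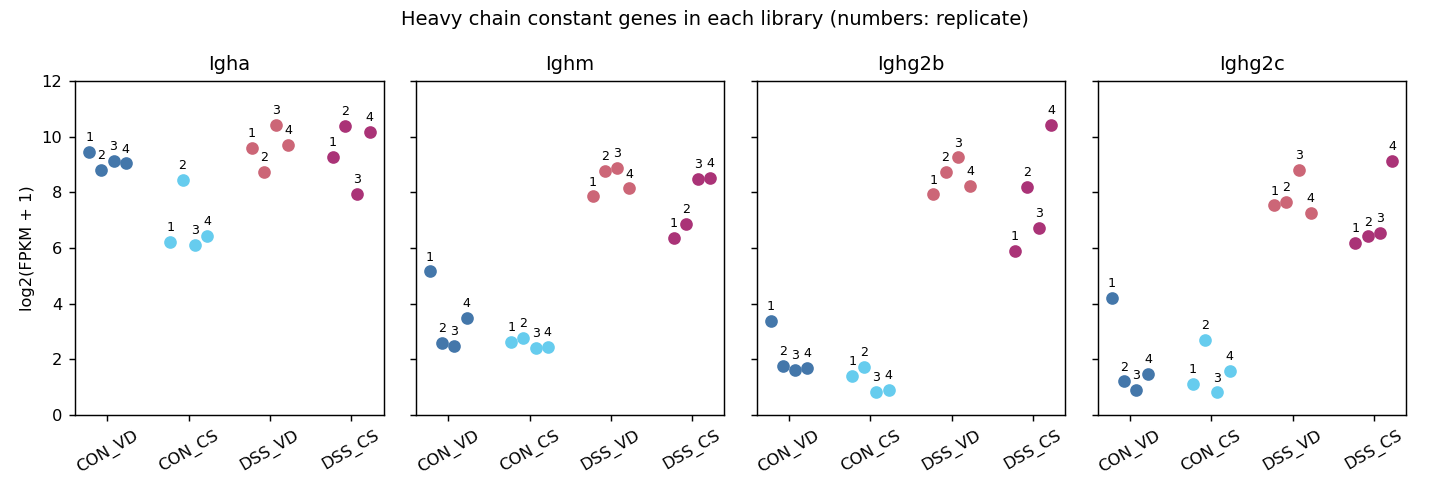
Levels of Igha, Ighm, Ighg2b and Ighg2c as log2(FPKM + 1), with 1 point per library and its replicate number. Igha overlaps between CON_VD and DSS_VD, whereas Ighm, Ighg2b and Ighg2c in all 8 DSS libraries lie above all 8 water libraries, and CON_VD replicate 1 is the highest of the water libraries in these 3.

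Lists of cell markers moved as follows. All 10 B cell genes, Cd79a and Cd79b of the B cell receptor among them, rose with DSS in VD and in CS mice, with sums between 2.56 and 43.2 FPKM on water and between 127 and 271 under DSS. Lymphoid follicle genes such as Cxcl13, the chemokine that draws B cells, rose in 7 of 7 tested in VD mice and 5 of 5 in CS mice. Genes of antibody-secreting cells rose in 7 of 10 and 9 of 9 tested. In VD mice Sdc1 and Fkbp11 had positive differences that did not pass, and Tnfrsf17 a negative one (-0.53 ± 0.21, limma adjusted p = 0.0753). Of all tested genes 24.0% rose in VD mice and 34.4% in CS mice, as above. T cell genes rose in 7 of 7 and 5 of 5 tested, with sums between 2.24 and 11.4 FPKM on water and between 21.5 and 44.1 under DSS. The list for IgA induction and transport was split, with 3 genes higher and 3 lower of 7 tested in VD mice and of 6 tested in CS mice. Some genes of these lists were under 1 FPKM in every water library compared. They passed the filter through the DSS group and had to differ, so their values are a description. In CS mice they were all B cell genes but Cd79a and Cd79b, the follicle genes Cxcr5 and Ccr7, Irf4 and Madcam1. The T cell genes Cd3d, Cd3g, Cd4 and Trac were also among them. In VD mice they were Pax5, Ccl19 and Cd3e. Others reached 1 FPKM in CON_VD in replicate 1 alone, the library with raised B cell markers. They were Ms4a1, Blk, Cr2, Fcer2a, Cd22, Fcrla, Bank1, Cxcr5, Ccr7, Glycam1, Madcam1 and Tnfsf13b. The T cell genes Cd3d, Cd3g, Cd4, Cd8a, Trac and Lck did so too. All of these passed the filter mainly through DSS_VD, so their values in VD mice are a description as well. Madcam1, the vessel addressin that gut-homing lymphocytes bind, rose by 2.92 ± 0.29 in VD mice, and Itgb7, a chain of its integrin receptor, by 1.88 ± 0.25. Tnfsf13b, the B cell survival factor BAFF, rose by 1.37 ± 0.19. Lower in VD mice were Tnfsf13 (-1.06 ± 0.16), Ccl28 (-1.64 ± 0.33) and Pigr. Pigr, which moves IgA through epithelial cells into the lumen, fell by 1.64 ± 0.29 on the log2 scale in VD mice (limma adjusted p = 0.00177) and by 4.03 ± 0.39 in CS mice (adjusted p = 3.1e-05). On water, summed antibody-secreting markers were 317 to 420 FPKM in CON_VD and 116 to 223 in CON_CS. These sums include Sdc1, at 38.4 to 51.2 FPKM in CON_VD and 29.2 to 34.2 in CON_CS. They also include Xbp1, at 64.9 to 71.7 and 49.9 to 58.5. Jchain alone was 181 to 271 FPKM in CON_VD and 23.6 to 122 in CON_CS. Of 8 tested genes of this list 1, Mzb1, was called lower. Prdm1 had a positive difference (0.43 ± 0.20, limma adjusted p = 0.278), and the other tested genes of the list had negative ones. In bulk tissue fewer cells of a type and less RNA per cell cannot be told apart, and neither can more follicles in a sampled piece and more B cells in the colon.

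Pseudogene rows differed between libraries more than the total did. Their sum was 24.5, 22.6, 40.0 and 26.9 FPKM in CON_VD, and 1.79, 0.562, 0.108 and 1.13 in CON_CS. Under DSS it was 162, 54.3, 94.5 and 131 in DSS_VD, and 0.821, 5.02, 169 and 352 in DSS_CS. The 4 CON_CS libraries and DSS_CS replicates 1 and 2 were low and the other 10 high, including DSS_CS replicates 3 and 4. CON_CS replicate 2 and CON_VD replicate 4 had near totals, 824 and 851 FPKM, and pseudogene sums of 0.562 and 26.9. DSS_CS replicate 2 and DSS_VD replicate 4 likewise had totals of 2934 and 2908 FPKM and pseudogene sums of 5.02 and 131. As a share of Ighv FPKM the pseudogenes held from 0.0683% in CON_CS replicate 2 to 11.9% in DSS_CS replicate 3. Of the 33 pseudogene rows, 6 reached 10 FPKM in some library, and these 6 held at least 62.9% of the pseudogene FPKM in each of the 10 libraries with a pseudogene sum of 20 or more.

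The pseudogene Ighv1-14 was listed at 0 in CON_CS replicates 2 and 3 and in DSS_CS replicates 1 and 2, and was at 43.5 and 27.4 FPKM in DSS_CS replicates 3 and 4. In DSS_VD it was at 88.0, 9.27, 28.8 and 55.1 FPKM. Ighv1-62 was at 8.05, 6.30, 26.2 and 1.78 FPKM in CON_VD, at 33.8, 37.4, 51.8 and 27.9 in DSS_VD, and at 0.0472, 0.138, 25.3 and 3.999 in DSS_CS. It was at 0.429 or less in CON_CS. Both were thus at 0.215 FPKM or less in CON_CS replicates 2, 3 and 4 and DSS_CS replicates 1 and 2, and at 1.11 and 0.429 in CON_CS replicate 1. Ighv1-55, the functional segment closest to Ighv1-62 at 97.1% identity, was at 12.5 and 56.5 FPKM in DSS_CS replicates 1 and 2, and Ighv1-53, at 96.6%, was at 141 and 44.1.

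Another group of rows was low in a pair of libraries from different birth groups; these rows were chosen after their values were seen. Ighv1-76 was at 57.1, 8.62, 267 and 0.149 FPKM in DSS_VD and at 2.28, 169, 0 and 32.9 in DSS_CS. Ighv1-75, its neighbor, was at 0.141 in DSS_VD replicate 4 and 0 in DSS_CS replicate 3, and at 6.04 to 60.8 in the other DSS libraries. Ighv1-85 was listed at 0 in DSS_VD replicate 4 and DSS_CS replicate 3 and was at 5.08 to 36.4 in the other 6 DSS libraries. Conversely, the pseudogene Ighv4-2 was at 16.4 FPKM in DSS_VD replicate 4 and at 22.1 and 139 in DSS_CS replicates 3 and 4, and at 1.40 or less in the other 13 libraries. Ighv8-11 was at 10.8 in DSS_VD replicate 4 and 57.5 in DSS_CS replicate 4, and at 1.82 or less elsewhere. In all, 40 of the 145 rows were at 10 FPKM or more in 1 library and listed at 0 in another. Whether the mice of this outbred stock differed in the V segments they carry from each other or from the annotated genome was not tested.

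**Figure D5:**
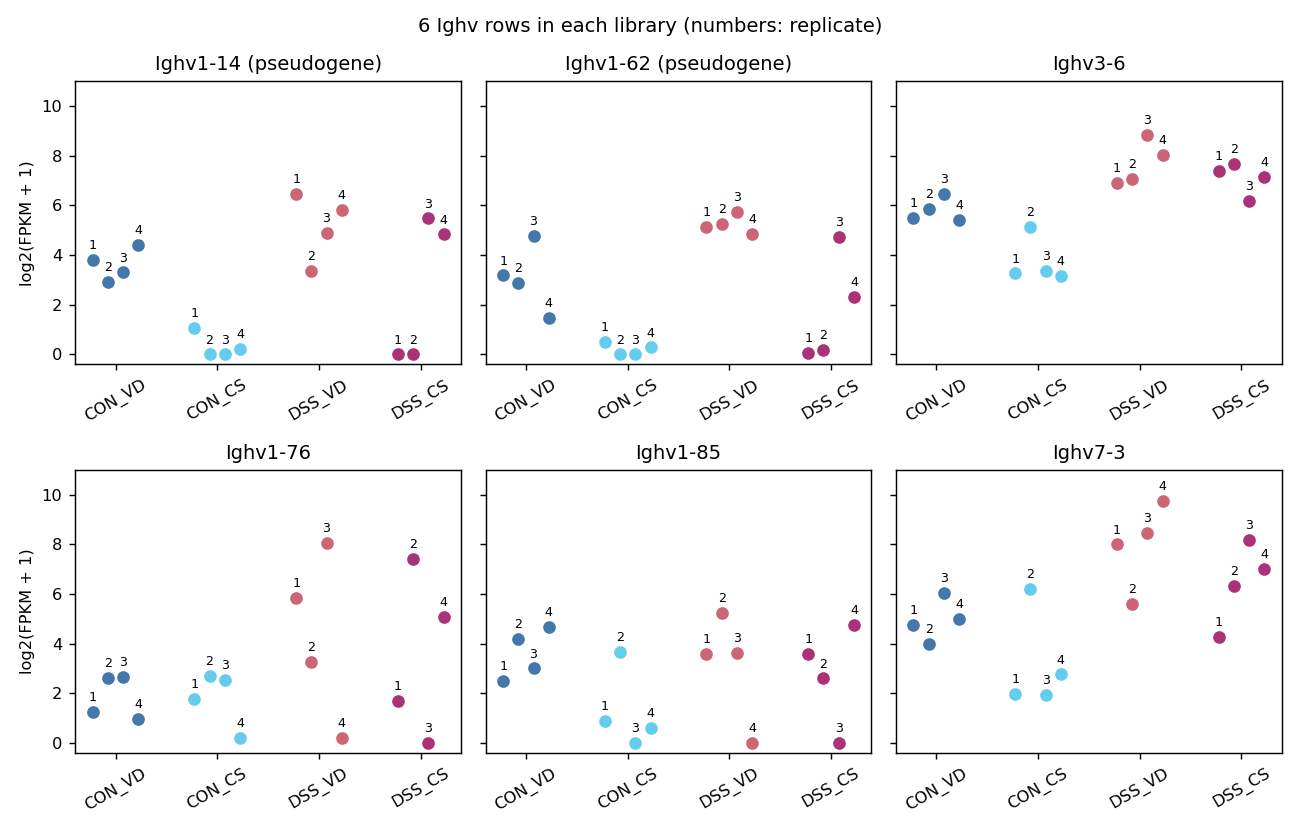
Levels of 6 Ighv rows as log2(FPKM + 1), with 1 point per library and its replicate number. The pseudogenes Ighv1-14 and Ighv1-62 are at or near 0 in CON_CS replicates 2, 3 and 4 and DSS_CS replicates 1 and 2, and Ighv1-76 and Ighv1-85 in DSS_VD replicate 4 and DSS_CS replicate 3, whereas Ighv3-6 is above 0 in every library.

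The V spectrum shared by pairs of libraries overlapped between pairs of a group and pairs across groups. The shared part, the summed lower share of each segment in a pair of libraries, was 57.1% to 68.4% within CON_VD, 51.1% to 62.0% within CON_CS, 44.8% to 68.6% within DSS_VD and 40.3% to 57.9% within DSS_CS. Between groups it was 36.1% to 65.4%, with a median of 55.7% over 96 pairs. The medians within groups were 61.7%, 56.8%, 59.8% and 45.6% in the same order, so that DSS_CS libraries were the least alike. Of the 10 highest segments, pairs of DSS_CS libraries shared 1 to 4 and pairs of CON_VD libraries 3 to 6. These are descriptions over pairs that share libraries, and no test was made.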

How the data were processed

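Colon RNA of 16 libraries was compared in 4 groups of 4, grouped by the labels. The values are FPKM that the authors deposited as 1 table of 39328 rows. The submitters' processing notes name the build GRCm38 and, with no version, cutadapt and FastQC. The aligner, quantifier and annotation were not given in the sources used here. Per the labels' protocols, total RNA was extracted. Read depth is unknown: among 12971 genes under 0.3 FPKM in every library, at most 0.978% of the ratios between a pair of libraries shared 1 value, so whole reads could not be recovered, and FPKM sums were 280135 to 343423 per library. The Ighv transcripts are short, and their FPKM depends on how fragment length was handled.

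Symbols came from a table of gene names, which matched 39181 rows, and positions and transcripts from GENCODE M21. Group differences were fitted in limma 3.58.1 (R 4.3.3) with an intensity trend, using log2(FPKM + 1) of genes with an FPKM of at least 1 in at least 4 fitted libraries. P-values are two-sided and adjusted by the Benjamini-Hochberg method over all tested genes, with a threshold of 0.05. The log2 scale with a pseudocount of 1 understates changes of low genes. Comparisons of 2 groups used their own 8 libraries and the interaction all 16, and comparisons that use the same group share its libraries. Named rows were the highest in each library, the 10 of highest mean share, the leader of each family with at least 1% of Ighv FPKM, and up to 5 called rows of smallest p per comparison. One gene of a marker list is not reported here. The members, lists and rules were chosen with earlier results of these data known. Pielou evenness, shares and sums were computed in Python 3.11.15, sequence identity with Biopython 1.88, and figures with matplotlib 3.10.9. Before use, each fit was tested on simulated data that held known changes.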

Additional observations from a re-analysis of the deposited data

Results flagged for a closer look

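In groups of 4 libraries, 1 library stood apart from the other 3 in 8 of 56 groups of values examined. Chance alone sets about 1 in 20 apart where the groups of values are independent. Here they are not, since IgA and IgG shares come from the same sum and totals and counts from the same rows. The count can therefore not show an excess. CON_CS replicate 2 was high in total, at 823.8 FPKM, and in detected segments, at 74. CON_VD replicate 1 had the lowest IgA share of its group, 90.1% of heavy chain constant FPKM, and the highest IgG share, 3.848%, beside its raised B cell markers. DSS_VD replicate 3 was high in total, at 5686 FPKM. DSS_VD replicate 4 had 29.64% of its Ighv FPKM in Ighv7-3. DSS_CS replicate 3 had 27.66% in family 7. DSS_CS replicate 4 had the lowest share in its 5 leading segments within its group, 34.67%.

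The DSS response differed between CS and VD mice, by limma's interaction test, in Ighv1-80 (3.719 on the log2 scale), Ighv1-7 (2.68), Ighv1-82 (2.564) and Ighv1-4 (2.506). These 4 of 98 tested rows stood beside 6.68% of all tested genes with a positive interaction, so their number is not above the background. All 4 were lower in CS than in VD mice on water by the group means, and none of these interactions passed the threshold without the 3 libraries with prostate genes.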

How the results depend on the processing

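No named row that passed the threshold changed direction under any alternative that was run. The number of Ighv rows called for CON_CS against CON_VD (6) was 1 without the filter on low values, 1 with 1 fit on all 4 groups, 3 without the prostate libraries, and 0 to 21 leaving out 1 library. For DSS_CS against DSS_VD (5) it was 0, 11, 2 and 0 to 7 in the same order. For DSS_VD against CON_VD (35) it was 21 without the filter and 23 with 1 fit on all 4 groups. For DSS_CS against CON_CS (46) it was 30 without the filter, 16 without the prostate libraries and 30 to 52 leaving out 1 library. For the interaction (4) it was 0 without the filter, 0 without the prostate libraries and 1 to 5 leaving out 1 library. At 0 calls without the filter, limma gave 15 and 11 rows at an unadjusted p under 0.05 for DSS_CS against DSS_VD and for the interaction. Leaving out libraries or adding rows changes what is tested. Calls over all tested genes moved too. For CON_CS against CON_VD they were 54, with 3 without the filter and 43 with 1 fit on all 4 groups. For DSS_CS against DSS_VD they were 1923, 3 and 3871 in this order, and for the interaction 2015, with 1042 without the filter. For DSS_VD against CON_VD they rose from 5704 to 6529 without the filter, and for DSS_CS against CON_CS from 8666 to 10979. The cause of each loss of Ighv rows was otherwise not tested. The prostate alternative was chosen after seeing the data. Same-numbered libraries did not deviate together, with correlations of -0.278 to 0.128, so the numbers were not taken as pairs. With the replicate number as a block the counts were 3, 0, 39, 45 and 3 in the order of the comparisons above. Over all tested genes they were 7, 2, 5221, 8247 and 1520.

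At 0.1 FPKM the difference in detected segments was -18.0 for CON_CS against CON_VD and 20.25 for DSS_CS against CON_CS. At 5 FPKM it was -16.0 for DSS_CS against DSS_VD and 26.0 for DSS_VD against CON_VD. The evenness difference of CON_CS from CON_VD, -0.00351 as reported, was 0.01706 over segments at 1 FPKM or more and -0.03615 over the log of all rows. That of DSS_CS from CON_CS was -0.09277 and -0.02654 in the same order, and -0.04536 without the leading segment of each library.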
